A study of Mus musculus with 30 samples.

Results

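The genes described here encode the Ragulator complex and the Rag GTPases. The members were the 5 Ragulator subunit genes *Lamtor1*, *Lamtor2*, *Lamtor3*, *Lamtor4* and *Lamtor5* and the 3 Rag GTPase genes *Rraga*, *Rragc* and *Rragd*. They were listed by name, as subunits of 1 complex and its GTPases, by a rule that uses no measured value, although earlier results of these data were known when the list was drawn up. All 8 were among the 13904 genes with an mRNA level, and 6 of them were among the 5806 transcripts with an mRNA half-life in both lines. *Lamtor2* and *Lamtor4* had no half-life.

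The measurements came from mouse spermatogonial stem cell (SSC) lines, which are long-term cultures of undifferentiated spermatogonia grown on feeder cells and derived from the testes of young postnatal males. Line 4 was *Nanos2* TAG/+ and line 5 was *Nanos2* TAG/TAG, where TAG is an allele that adds V5, Myc, PreScission, His and EGFP sequences to the N terminus of NANOS2. RNA-seq of ribosomal RNA-depleted total RNA gave 1 library per line. SLAM-seq, in which RNA labelled with 4-thiouridine is followed after the label is withdrawn, gave 1 half-life per transcript and line, which the authors derived from 12 libraries of each line at 6 chase times from 0 to 1440 min. RNA for sequencing was taken after feeder cells had been depleted, and by the study's methods the SSCs were sorted through a gate that leaves out remaining feeders. Both lines carried a tagged allele, TAG/+ beside an untagged one, and neither lacked NANOS2. Each genotype was 1 line, so a difference of genotype cannot be told apart from one of line. The labels give QIAzol for the TAG/+ RNA and Trizol for the TAG/TAG RNA, whereas the study's methods name QIAzol alone. If the labels hold, a difference of genotype cannot be told apart from one of reagent either. With 1 library per line no difference between the lines was tested, and no p-value is given.

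Ragulator is a pentamer that sits on the lysosome membrane and holds the Rag GTPases there. A Rag heterodimer pairs RagA or RagB with RagC or RagD, and when amino acids are plentiful it brings mTORC1, the growth-promoting kinase complex, to the lysosome, where RHEB switches it on. LAMTOR3, also known as MP1, was first described as a scaffold for MEK1 and ERK1. NANOS2 is an RNA-binding protein that maintains SSCs, and the study lists *Lamtor3* and *Lamtor2* among the transcripts bound by NANOS2. *Lamtor3* was therefore set against its complex partners.

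The 3′ untranslated regions (UTRs) of the members were searched for the study's NANOS2 consensus, read on the sense strand only. The consensus has 4 spellings, of which AUGAAAU occurred once in *Lamtor3*, AUGAAUU occurred once in *Rragc*, AUUAAAU occurred once in *Rragd*, and the spelling AUUAAUU occurred in none. The other 5 members had no match. Of the 3′ UTRs of 12447 genes with an mRNA level, 38.7% held at least 1 match, so 3 of 8 was close to the share over all genes. The windows below are shown because they hold the 3 consensus matches, in capitals, within 30 bases of mRNA sequence read from the GRCm38 genome with GENCODE M21 transcripts.
Lamtor3, chr3:137928457-137928486, plus strand: uugugaggaagAUGAAAUggcuuaguaaaa
Rragc, chr4:123936663-123936692, plus strand: uugccugagauAUGAAUUcauaauuguucc
Rragd, chr4:33021771-33021800, plus strand: uauuuuggaucAUUAAAUagaaaauggcua

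The *Lamtor3* match began 448 nucleotides after the stop codon of a 3′ UTR of 745 nucleotides, in exon 7 of 7. Of the 1597 3′ UTRs of similar length (596 to 931 nucleotides), 28.8% held a match. The *Rragc* match began at nucleotide 985 of 1308, and 41.1% of 3′ UTRs of similar length held one. The *Rragd* match began at nucleotide 2984 of 3382, and 71.7% of 3′ UTRs of similar length held one. The 3′ UTR of *Lamtor2*, the other transcript that the study lists as bound, was the shortest of the 8 at 129 nucleotides and held no match. The other 3′ UTRs without a match were those of *Lamtor1* (538 nucleotides), *Rraga* (425), *Lamtor5* (384) and *Lamtor4* (258). A match is a string of letters and not a measured binding site.

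Pumilio proteins are partners of NANOS proteins in other animals, and their motif UGUANAUA, where N is any base, was searched as well. It had 1 match in *Lamtor3*, *Lamtor5* and *Rragd*, and 25.3% of the 12447 3′ UTRs held one. These windows are shown to set the Pumilio motif beside the NANOS2 consensus, and *Lamtor3* and *Rragd* were the members with both.
Lamtor3, chr3:137928684-137928713, plus strand: ccuuaucaggaUGUAUAUAaaaugacagga
Lamtor5, chr3:107284027-107284056, plus strand: uuaggucacuuUGUAUAUAgaacuucauua
Rragd, chr4:33019031-33019060, plus strand: cugccaggaacUGUACAUAuuuugcauauu

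The AU-rich pentamer AUUUA, a short element known from unstable mRNAs, had 5 matches in *Rragc*, 3 in *Rragd*, 2 each in *Lamtor3* and *Rraga* and 1 in *Lamtor5*. It was present in 67.5% of the 12447 3′ UTRs. The members without it were *Lamtor1*, *Lamtor2* and *Lamtor4*. No match of 1 motif overlapped a match of another.

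**Figure D1:**
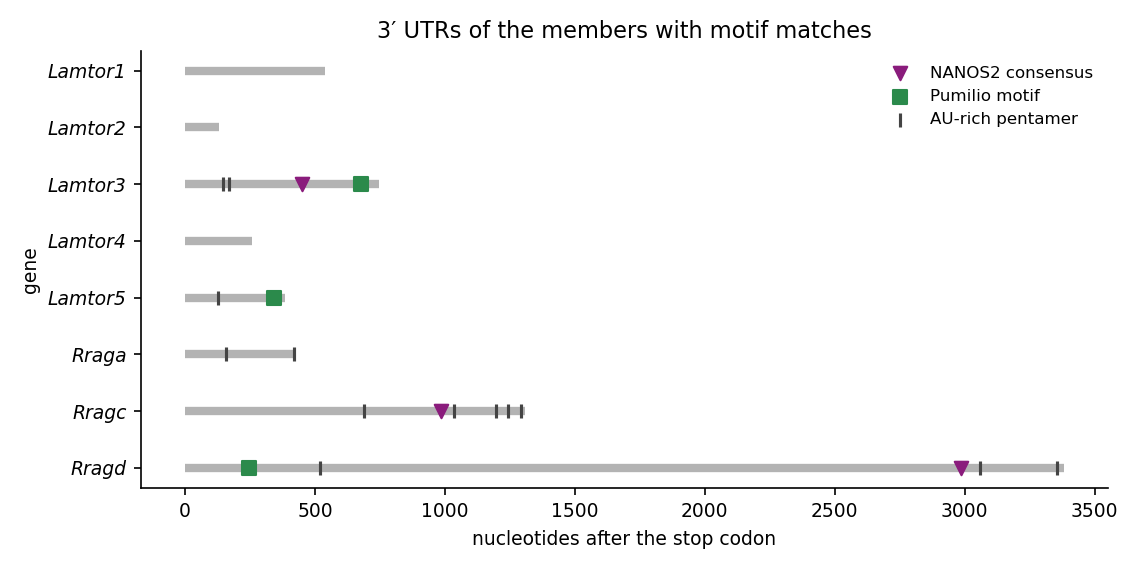
Annotated 3′ UTRs of the 8 members (grey bars, 1 coding transcript per gene), drawn to scale in nucleotides after the stop codon, with matches to the NANOS2 consensus (triangles), the Pumilio motif (squares) and the pentamer AUUUA (ticks). Only *Lamtor3*, *Rragc* and *Rragd* carry a triangle, and the UTR lengths run from 129 nucleotides in *Lamtor2* to 3382 in *Rragd*.

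mRNA level was measured as FPKM, which scales the fragments of a gene by transcript length and by the depth of the library. The whole reads behind each FPKM were recovered from the deposited values, and intervals given with a level or a ratio are exact 95% intervals for the counting of those reads. They do not cover the spread between cultures. The values had been scaled to depths of 10908790 reads in the TAG/+ library and 11738620 reads in the TAG/TAG library, and the median FPKM of all genes was 10.2 and 10.5.

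Of the 12546 genes with a mean FPKM of at least 1, 18.6% were at least 1.5-fold lower in TAG/TAG and 20.8% at least 1.5-fold higher. All 8 members passed this level, 2 were at least 1.5-fold lower (*Lamtor3* and *Rragd*), and none was at least 1.5-fold higher. The median log2 difference of the 8, TAG/TAG minus TAG/+, was -0.18, against -0.00252 over all these genes. A lower level in bulk RNA cannot tell fewer cells of a type from less RNA per cell.

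*Lamtor1* encodes the subunit that carries the lipid anchor to the lysosome and wraps around the other subunits. It lies at chr7:101905904-101926675 on the plus strand and had the highest level of the members, with an FPKM of 221 (213 to 229) from 2991 reads in TAG/+ and 267 (259 to 276) from 3887 reads in TAG/TAG. These levels were above 96.4% and 97.3% of all genes. The TAG/TAG level was 1.21-fold the TAG/+ level (1.15 to 1.27), within the 1.5-fold call. Of the 50-base stretches of *Lamtor1* transcripts, 74.4% occurred in no other gene, and the rest were shared with *Lrrc51*, which overlaps on the other strand, and with the pseudogene *Gm5510*. *Lrrc51* had an FPKM of 42.4 and 15.5, and *Gm5510* had 13.2 and 4.38, each in TAG/+ and TAG/TAG. How reads were divided between these genes was not tested, and the level of *Lamtor1* is uncertain for that reason.

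*Lamtor2* and *Lamtor3* encode roadblock-fold proteins that bind each other. *Lamtor2* (chr3:88549819-88553074, minus strand) had an FPKM of 15.2 (12.3 to 18.7) from 94 reads in TAG/+ and 12.7 (10.1 to 15.7) from 84 reads in TAG/TAG. The intervals overlapped, and the ratio of TAG/TAG to TAG/+ was 0.83 (0.611 to 1.13). *Lamtor3* (chr3:137918506-137928900, plus strand) had an FPKM of 19.6 (17.0 to 22.4) from 215 reads in TAG/+ and 10.7 (8.96 to 12.8) from 127 reads in TAG/TAG. These intervals did not overlap, and the TAG/TAG level was 0.549 times the TAG/+ level (0.437 to 0.687). On the log2(FPKM + 0.1) scale the difference, TAG/TAG minus TAG/+, was -0.86 for *Lamtor3*, and 11.1% of genes with a mean FPKM of at least 1 had a lower value. *Lamtor2* was present at 0.779 times (0.605 to 0.997) the *Lamtor3* level in TAG/+ and at 1.18 times (0.883 to 1.56) in TAG/TAG. These ratios lay on opposite sides of 1, but the interval in TAG/TAG included equal levels, so a turned order was not shown. Computed with the length of 1 principal transcript per gene, the ratios were 0.848 in TAG/+ and 1.28 in TAG/TAG.

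*Lamtor4* and *Lamtor5* encode the second roadblock pair. *Lamtor4* (chr5:138255482-138259398, plus strand) had the lowest level of the members, with an FPKM of 8.69 (6.97 to 10.7) in TAG/+ and 8.07 (6.48 to 9.95) in TAG/TAG, from 88 reads in each library. *Lamtor5* (chr3:107278858-107284082, plus strand) had an FPKM of 21.2 (18.3 to 24.5) from 188 reads in TAG/+ and 20.9 (18.1 to 24.0) from 199 reads in TAG/TAG. Both pairs of intervals overlapped almost fully, with ratios of TAG/TAG to TAG/+ of 0.929 (0.684 to 1.26) for *Lamtor4* and 0.984 (0.802 to 1.21) for *Lamtor5*. *Lamtor4* stood at 0.409 times the *Lamtor5* level in TAG/+ and at 0.387 times in TAG/TAG. The ratio within this pair thus differed less between the lines than the ratio of *Lamtor2* to *Lamtor3*.

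*Rraga* encodes RagA, which pairs with RagC or RagD. It is a gene of 1 exon at chr4:86575668-86577285 on the plus strand, and its FPKM was 16.9 (15.0 to 18.9) from 298 reads in TAG/+ and 14.1 (12.4 to 15.8) from 267 reads in TAG/TAG. The ratio of TAG/TAG to TAG/+ was 0.833 (0.703 to 0.985). *Rragb*, which encodes RagB and was not a member, stood at 3.25 and 2.03 FPKM (55 and 37 reads), so that *Rraga* stood at 5.20 times its level in TAG/+ (3.89 to 7.06) and at 6.92 times in TAG/TAG (4.90 to 10.0).

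*Rragc* and *Rragd* encode RagC and RagD, the alternative partners of RagA and RagB. *Rragc* (chr4:123917446-123936997, plus strand) had an FPKM of 12.5 (10.8 to 14.4) from 195 reads in TAG/+ and 14.5 (12.7 to 16.4) from 243 reads in TAG/TAG, a ratio of 1.16 (0.955 to 1.41). *Rragd* (chr4:32983037-33022180, plus strand) had an FPKM of 113 (109 to 116) from 4546 reads in TAG/+ and 41.3 (39.4 to 43.2) from 1794 reads in TAG/TAG. It was the member that differed most between the libraries, with the TAG/+ level 2.73-fold the TAG/TAG level (2.58 to 2.88) and a log2 difference of -1.44, and 4.51% of genes had a lower value. *Rragd* stood at 9.02 times the *Rragc* level in TAG/+ (7.81 to 10.5) and at 2.86 times in TAG/TAG (2.50 to 3.28). In both libraries *Rragd* was the more abundant transcript of the pair per length.

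Sharing of sequence was smaller for the other members. The share of 50-base stretches found in no other gene was 94.5% for *Lamtor3*, 85.5% for *Lamtor5*, 93.3% for *Rragc* and 99.8% for *Rragd*, and *Lamtor2*, *Lamtor4* and *Rraga* shared none. For *Lamtor3* and *Lamtor5* the rest was shared mainly with processed pseudogenes. For *Rragc* it was shared mainly with *4930535I16Rik*, which overlaps on the other strand, and with a processed pseudogene. For *Rragd* it was shared mainly with noncoding transcripts of *Tmcc1*, *Gm44190* and *4930553M12Rik*. *Tmcc1* had an FPKM of 37.8 in TAG/+ and 48.2 in TAG/TAG.

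**Figure D2:**
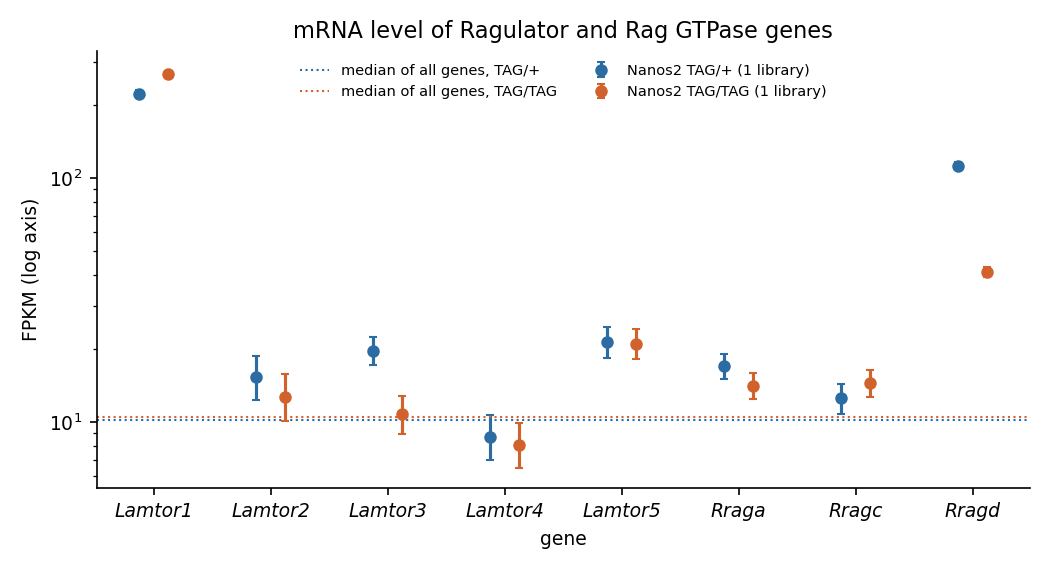
FPKM of the 8 members on a log axis in the *Nanos2* TAG/+ library (blue) and the *Nanos2* TAG/TAG library (orange), with exact 95% intervals for the counting of reads and the median of all genes of each library as a dotted line. *Lamtor1* and *Rragd* lie highest, and the intervals of *Lamtor3* (19.6 and 10.7) and *Rragd* (113 and 41.3) do not meet.

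In order of mean FPKM over both lines the members were *Lamtor4* (8.38 ± 0.434), *Rragc* (13.5 ± 1.39), *Lamtor2* (14.0 ± 1.83), *Lamtor3* (15.2 ± 6.24), *Rraga* (15.5 ± 1.998), *Lamtor5* (21.1 ± 0.245), *Rragd* (76.9 ± 50.4) and *Lamtor1* (244 ± 32.5; each SD over the 2 lines). The ranges of *Rragc*, *Lamtor2*, *Lamtor3* and *Rraga* over the lines overlapped from neighbour to neighbour, so their order was not separated beyond the spread between lines. The other neighbours had ranges that did not meet. The deposited FPKM were computed with the mean length of all annotated transcripts of a gene, and with the length of 1 principal transcript *Rragc* fell to 6.89 in TAG/+ and 7.98 in TAG/TAG, below *Lamtor4* at 9.20 and 8.55.

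The median half-life of all 5806 transcripts was 224 min in TAG/+ and 226 min in TAG/TAG. Being below the median in both lines was met by 39.8% of all transcripts and by 3 of the 6 members with a half-life (*Rragc*, *Lamtor3* and *Rraga*). The half-lives came with neither an error nor a depth, and the only spread is that between the lines.

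*Rragc* had the shortest half-life of the members, 92.2 min in TAG/+ and 120 min in TAG/TAG (mean 106 ± 19.8 min, SD over the 2 lines). *Lamtor3* followed with 103 and 135 min (119 ± 23.0 min), and its range overlapped that of *Rragc*. Of all transcripts, 7.20% had a shorter half-life than *Lamtor3* in TAG/+ and 18.2% in TAG/TAG. For *Rragc* the shares were 4.91% and 13.8%. Both lay below the lower quartile of all transcripts in each line, and the share of all transcripts that do so was not computed. A match to the NANOS2 consensus was present in both and also in the longest-lived member, *Rragd*. A link between match and half-life was not tested.

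*Rraga* had 215 and 220 min, just below the median in each line, and was the member whose half-life differed least between the lines (218 ± 3.18 min). *Lamtor5* had 292 min in TAG/+ and 191 min in TAG/TAG (241 ± 71.5 min), above the median in the first line and below it in the second. *Lamtor1* had 258 and 249 min (253 ± 6.93 min). *Rragd* had the longest half-lives of the members, 336 and 315 min (326 ± 14.8 min), which were longer than those of 84.4% and 78.0% of transcripts. The ranges of *Rraga*, *Lamtor5* and *Lamtor1* overlapped from neighbour to neighbour, whereas *Lamtor3* and *Rragc* lay below all 4 others and *Rragd* above all 5 others in both lines. The paralogs *Rragc* and *Rragd* were thus at opposite ends of the order.

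**Figure D3:**
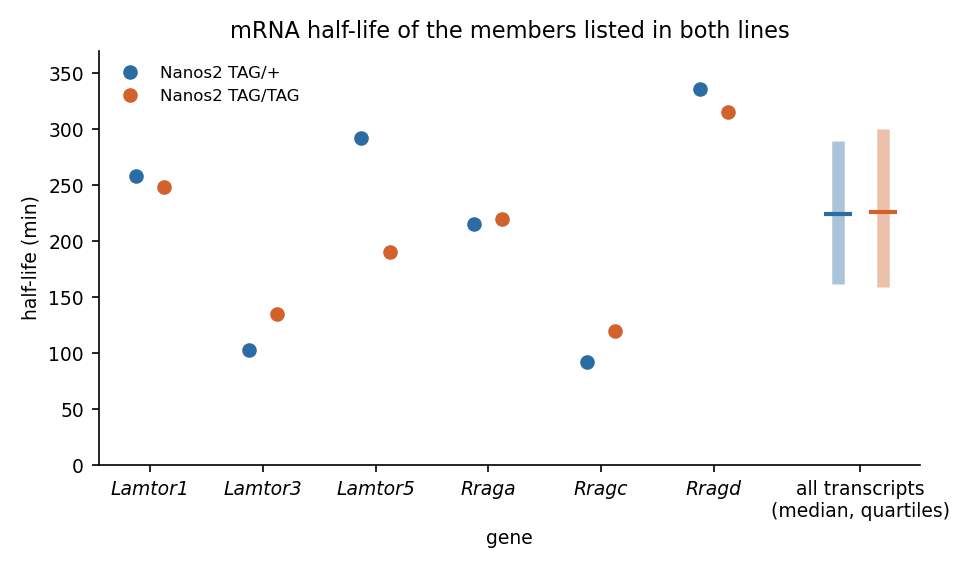
Half-life in min of the 6 members listed in both lines, in *Nanos2* TAG/+ (blue) and *Nanos2* TAG/TAG (orange), 1 fitted value per line, beside the median (dash) and the quartiles (bar) of all 5806 transcripts. *Lamtor3* and *Rragc* lie below the lower quartile of each line, which was 162 min in TAG/+ and 159 min in TAG/TAG.

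Set against the median of its 5 partners with a half-life, *Lamtor3* was shorter-lived by 156 min in TAG/+, at 103 against 258 min, and by 84.8 min in TAG/TAG, at 135 against 220 min. The mean difference was -120 ± 50.2 min (SD over the 2 lines). In each line 4 of the 5 partners had a longer half-life, and the exception was *Rragc*, 10.3 min shorter than *Lamtor3* in TAG/+ and 14.8 min shorter in TAG/TAG. The gap was widest to *Rragd*, at -234 min in TAG/+ and -180 min in TAG/TAG. Against *Lamtor5*, the gap moved from -189 min in TAG/+ to -55.6 min in TAG/TAG. *Lamtor2*, its direct binding partner, could not be compared because it had no half-life.

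The level of *Lamtor3* was not set apart from its partners in the same way. *Lamtor3* was at 1.16 times the median FPKM of its 7 partners in TAG/+ and at 0.743 times in TAG/TAG, a mean of 0.952 ± 0.294 (SD over the 2 lines). In TAG/+ 3 of the 7 partners had a higher FPKM and in TAG/TAG 6 did. The ratio to *Rraga* moved from 1.16 to 0.764, that to *Rragc* from 1.57 to 0.743 and that to *Lamtor4* from 2.25 to 1.33. With the length of the principal transcript these ratios were 0.901 and 0.594 to *Rraga*, 2.21 and 1.05 to *Rragc* and 1.65 and 0.977 to *Lamtor4*, in TAG/+ and TAG/TAG. The side of 1 thus turned with the length used for *Rraga* in TAG/+ and for *Rragc* and *Lamtor4* in TAG/TAG. Each of these ratios was lower in TAG/TAG, a direction that the length cannot change because it is the same in both lines. The ratio to *Rragd* went the other way, from 0.174 in TAG/+ to 0.260 in TAG/TAG.

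Across the 5152 genes with both measurements, half-life and level rose together, with a Spearman rho of 0.505 in TAG/+ and 0.454 in TAG/TAG, a description across genes that share a library. *Lamtor3* was therefore also placed among transcripts of similar level. Of the 1194 transcripts within 1.5-fold of its FPKM in TAG/+, 7.62% had a shorter half-life, and of the 949 in TAG/TAG, 28.6% had. For *Rragc* the shares were 7.96% of 955 and 18.2% of 1073. *Lamtor1*, whose half-life was above the median of all transcripts, had a shorter half-life than most transcripts of its own level, with 23.9% of 394 and 18.3% of 295 below it.

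**Figure D4:**
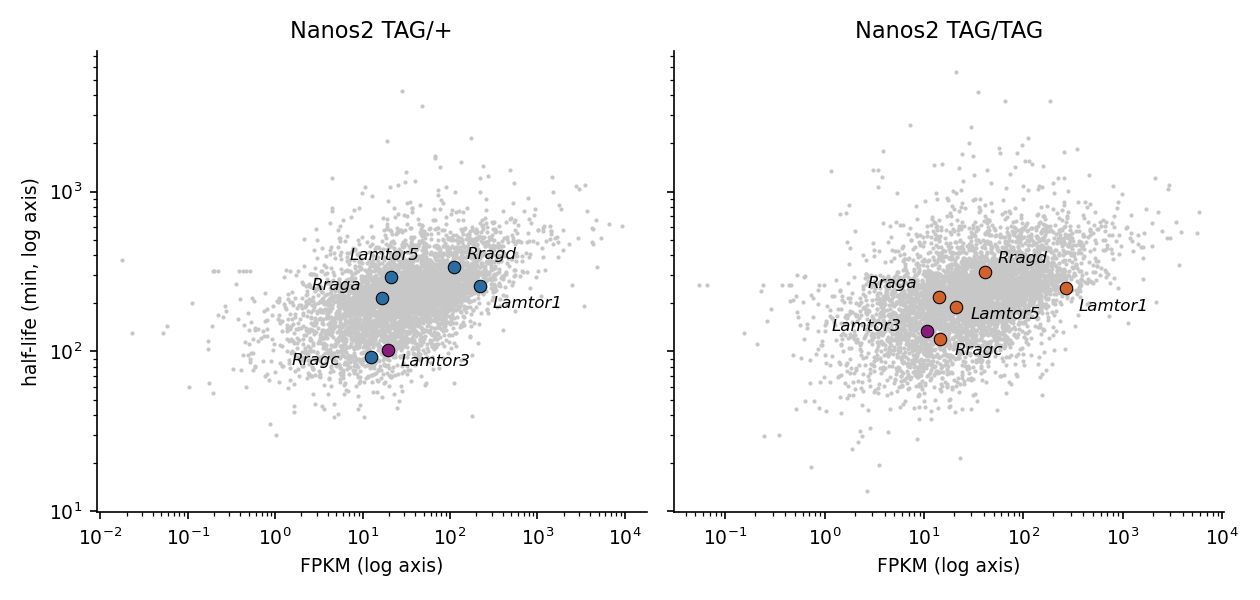
Half-life in min against FPKM, both on log axes, for the genes with both values (grey) and the 6 members (coloured, *Lamtor3* in purple) in the *Nanos2* TAG/+ line (left) and the *Nanos2* TAG/TAG line (right). *Lamtor3* and *Rragc* lie at the lower edge of the genes of their level in TAG/+, and *Lamtor1* lies below most genes of its level in both lines.

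Of all transcripts, 10.0% had a half-life at least 1.5-fold longer in TAG/TAG and 10.7% at least 1.5-fold shorter. Of the 6 members, none was longer by that factor and 1 was shorter, *Lamtor5*, whose TAG/+ half-life was 1.53-fold its TAG/TAG half-life. *Lamtor3* was 1.32-fold longer in TAG/TAG and *Rragc* 1.30-fold longer, and both fell within the 1.5-fold call. On the log2 scale their ratios were 0.40 and 0.38, which exceeded those of 82.1% and 81.5% of transcripts. *Rraga* (1.02), *Lamtor1* (0.962) and *Rragd* (0.938) had half-life ratios of TAG/TAG to TAG/+ close to 1.

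The members thus did not move together. *Lamtor3* was lower in level in TAG/TAG, with a half-life that was longer only within the 1.5-fold call. *Rragd* was lower in level at a similar half-life, and *Lamtor5* was shorter in half-life at a similar level. *Rragc* had a half-life ratio like that of *Lamtor3* without a lower level.

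**Figure D5:**
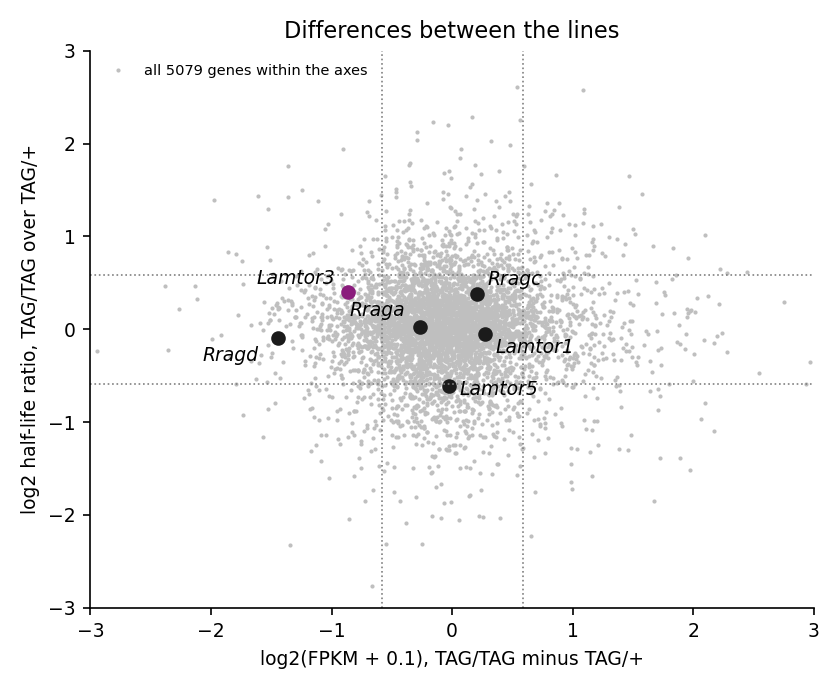
Difference in log2(FPKM + 0.1), TAG/TAG minus TAG/+, against the log2 ratio of half-lives, TAG/TAG over TAG/+, for 5079 genes with a mean FPKM of at least 1 inside the axes (grey) and the 6 members with both values, with 1.5-fold marked by dotted lines. *Lamtor3* (-0.86, 0.40) and *Rragd* (-1.44, -0.09) lie left of the dotted line, and *Lamtor5* (-0.02, -0.61) lies below it.

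If each level were steady, the level and the half-life would together give the amount replaced per hour, as FPKM times the natural log of 2 over the half-life. By this measure *Lamtor3* had 7.94 FPKM per hour in TAG/+ and 3.31 in TAG/TAG, and *Rragd* had 13.9 and 5.44. Both were lower in TAG/TAG, 2.40-fold for *Lamtor3* and 2.56-fold for *Rragd*, and 4.76% and 3.84% of 5152 genes had a lower ratio. *Lamtor1* had 35.6 and 44.7, *Rragc* had 5.63 and 5.00, *Rraga* had 3.26 and 2.66, and *Lamtor5* had 3.03 and 4.55, whereas the median of all genes was 5.90 and 5.67. The steady level was assumed and not measured.

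The genes most like *Lamtor3* over 4 values, the log2 level and the log2 half-life in both lines, were sought among the 5152 genes. The 5 nearest by Euclidean distance were *Msantd2* (0.245), *Fut8* (0.270), *Ppp3cb* (0.324), *Zfp141* (0.394) and *Cdkal1* (0.397). *Msantd2*, the nearest, had an FPKM of 20.1 and 10.3 and half-lives of 102 and 115 min in TAG/+ and TAG/TAG. The nearest complex partner was *Rragc*, which ranked 75 at a distance of 0.805, followed by *Rraga* at 515 and *Lamtor5* at 1317, whereas *Rragd* ranked 3669 and *Lamtor1* 4781.

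Around the members, 69 other gene symbols of the pathway were listed. Among them *Gatsl2*, *Gatsl3* and *Kics2* matched no gene name of the annotation and may be other names of listed genes. Of the 69 symbols, 59 had a level here and 57 a mean FPKM of at least 1. Of these 57, 11 were at least 1.5-fold lower in TAG/TAG and 3 at least 1.5-fold higher, beside the 18.6% and 20.8% of all genes, with a median log2 difference of -0.05. The gene past 2-fold among the amino acid sensors was *Slc38a9*, an arginine sensor that binds Ragulator, with an FPKM of 17.3 and 8.13 in TAG/+ and TAG/TAG. Among the transcription factors held by the Rag GTPases it was *Tfeb*, a regulator of lysosomal genes, with 24.9 and 65.8. In BORC, a complex that binds Ragulator and positions lysosomes, *Bloc1s1* had 31.3 and 15.0 and *Borcs8* had 3.74 and 8.29, the latter from 31 and 74 reads. These genes, named for being past 2-fold, stood on both sides of equal level, whereas past 1.5-fold more of the 57 were lower than higher.

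Of the 16 listed genes of the V-ATPase, the lysosomal proton pump that binds Ragulator, 14 were tested, 4 were at least 1.5-fold lower (*Atp6v1d*, *Atp6v1g1*, *Atp6v1h* and *Atp6v0b*) and none higher, with a median log2 difference of -0.32. Among all tested genes 18.6% were lower and 20.8% higher by that factor. In GATOR1, the complex that acts on RagA and RagB as a GTPase-activating protein, *Nprl2* was lower and *Depdc5* and *Nprl3* were within the call. None of the 4 tested genes of GATOR2, which opposes GATOR1, of mTORC1 itself or of the TSC and RHEB list passed the call. *Itfg2* of KICSTOR, which anchors GATOR1, was higher, and *Fnip1* of the FLCN complex, which acts on RagC and RagD, was lower. None of 5 tested genes of the MEK-ERK module, for which LAMTOR3 is a scaffold, passed the call.

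Half-lives were listed for 40 of the 69 symbols, of which 12 were below the median in both lines. By 1.5-fold, 6 were longer and 4 shorter in TAG/TAG. Over all transcripts the shares were 39.8% below the median in both lines, 10.0% longer and 10.7% shorter. The median half-life of the 40 was 235 and 229 min in TAG/+ and TAG/TAG, and that of the 6 members was 237 and 205 min. The shortest mean half-life was that of *Mlst8*, a subunit of mTORC1, with 96.0 and 96.1 min, below *Lamtor3* in both lines and below *Rragc* in TAG/TAG. The longest was that of *Atp6v1f* of the V-ATPase, with 457 and 503 min. *Mtor*, the kinase, had 243 and 353 min, and *Rheb* had 228 and 166 min.

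Within the other lists with at least 2 half-lives, the shortest and longest means were those of *Wdr24* (177 and 43.7 min) and *Mios* (289 and 257 min) in GATOR2. They were *Sesn1* (142 and 170 min) and *Bmt2* (189 and 156 min) among the amino acid sensors, and *Braf* (152 and 166 min) and *Map2k2* (421 and 366 min) in the MEK-ERK module. *Rheb* and *Tsc1* (178 and 251 min) bounded the TSC and RHEB list, *Tfe3* (189 and 227 min) and *Tfeb* (279 and 176 min) the transcription factors, and *Borcs6* (121 and 194 min) and *Bloc1s1* (323 and 601 min) BORC. *Atp6v0c* (127 and 203 min) was the shortest-lived of the V-ATPase. In KICSTOR the half-lives of *Kptn* were 64.6 and 395 min. *Depdc5* (210 and 151 min) and *Fnip1* (209 and 182 min) were the sole entries of GATOR1 and FLCN. The half-lives of *Kptn* and *Wdr24* differed more between the lines than that of any member.

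The cell type markers were measured beside these results. Of 8 genes listed as markers of undifferentiated spermatogonia, 7 had a level, and their summed FPKM was 342 in TAG/+ and 638 in TAG/TAG. In this list *Ddx4* and *Dazl* are germ cell genes not particular to that type. The listed genes did not share a direction, so the sum does not stand for each of them. At least 1.5-fold higher in TAG/TAG were *Gfra1* (56.2 and 111), *Ret* (73.2 and 181) and *Etv5* (46.0 and 178). *Ddx4* was higher within the call (31.0 and 41.4), whereas *Zbtb16* (107 and 102) and *Id4* (1.76 and 1.59) were slightly lower. *Nanos2* had an FPKM of 27.5 and 23.8, a level that does not separate tagged from untagged alleles. The 4 markers of differentiating spermatogonia summed to 67.3 and 52.2. *Sohlh1* was at least 1.5-fold lower, *Kit* and *Stra8* were lower within the call, and *Dmrtb1* was higher within it (3.67 and 4.86). Fibroblast markers were listed because the cultures grew on feeders that the sorting gate described in the study's methods would remove. Of these 6, 5 had a level and summed to 51.6 and 81.9, with *Col1a1* and *Dcn* at least 1.5-fold higher. *Col1a2* and *Postn* were higher within the call, and *Col3a1* was slightly lower (7.10 and 6.79). No marker with a level was at 0. The part of these marker differences in the levels of *Lamtor3* and *Rragd* was not tested.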

How the data were processed

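RNA-seq and SLAM-seq tables of SSC lines were used. The members, gene lists and motifs were chosen with earlier results of these data known. The FPKM values were deposited by the authors, 1 column per line; the submitters' processing notes name kallisto and DESeq2, and the counting settings for strand are not given in the sources used here. The columns were assigned by their names, G for a tagged and p for an untagged allele. kallisto estimates counts, so a recovered read is an estimated count rounded to whole. FPKM multiplied by the mean length of the transcripts of a gene in GENCODE M21 gave whole reads, within 0.01, for all 13892 of 13904 genes matched by name. On reads simulated for both libraries, the recovery returned the simulated reads of 13892 of 13892 genes. That checks the arithmetic of the recovery and cannot show that the deposited values stand for counted reads.

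The other deposited values are half-lives in min, which the authors fitted as first-order decay with the R function nls to SlamDunk conversion rates normalised to the start of the chase, after collapsing technical replicates. Their sample labels read CTL and EXP, and the file names give the genotype. CRAC libraries were not analysed here.

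Differences were taken as log2(FPKM + 0.1), and calls as 1.5-fold, without a test. Exact Poisson intervals were used for levels and exact binomial intervals for ratios, both for counting error only. Named genes were the 8 members, *Rragb*, the genes past 2-fold and those with the shortest and longest mean half-life of each pathway list, and the 5 nearest to *Lamtor3*. Genes named only as past the 1.5-fold call were chosen after their values were seen, as were the motifs beside the NANOS2 consensus. Of each gene 1 coding transcript was searched for motifs. Protein sequences were not used here. The values of 1 gene that this rule names are not reported here. Python 3 with pandas, numpy and scipy was used.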

Additional observations from a re-analysis of the deposited data

How the results depend on the processing

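No paired analysis was possible because each line has 1 RNA-seq library and 1 set of half-lives. With a pseudocount of 1, with none and with the median of all genes set to 0, the log2 difference of *Lamtor3* ran from -0.81 to -0.87. The direction was kept for all 8 members, but these settings could not have turned it. A pseudocount cannot change the sign of a difference, and the median was only -0.00252. At 2-fold, 1 member (*Rragd*) was lower in place of 2, and 1088 genes were lower and 1465 higher in place of 2335 and 2610. With a mean FPKM of at least 5 these were 1391 and 1408. With the half-life call at a log2 ratio of 0.32, 1186 half-lives were shorter and 1283 longer in place of 621 and 583, and 2 members (*Lamtor3* and *Rragc*) were longer in place of 0. The share of transcripts with a shorter half-life than *Lamtor3* in TAG/TAG was 28.6% among those of similar FPKM in place of 18.2%. Leaving out 1 line or 1 partner, the half-life of *Lamtor3* minus the median of its partners ran from -156 to -84.8 min, and its FPKM over the median of its partners from 0.743 to 1.16, so the latter had no constant side of 1. Over the mean of its partners the FPKM ratio was 0.267, since the mean is set by *Lamtor1* and *Rragd*. With principal-transcript lengths it was 0.748. The 84 to 298 reads behind a library's value for the members other than *Lamtor1* and *Rragd* limit the ratios, and no depth is known for the half-lives.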
